A study of Homo sapiens with 16 samples.

Results

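The genes described here are 3 Notch receptors (NOTCH1, NOTCH2 and NOTCH3), 3 of their ligands (JAG1, JAG2 and DLL1) and 2 transcription factors that are targets of the pathway (HES1 and HEY1), followed in MCF-10A cells during 45 hours with a HER2 kinase inhibitor. Their rows were taken by gene symbol, and the genes were chosen with earlier results of these data known. Each gene had 1 row, so that they make up 8 of the 20589 rows and 8 of the 18190 symbols of the array. MCF-10A cells are immortal but nontransformed epithelial cells of the human breast, used here as 1 line without a HER2 transgene. RNA was taken every 3 hours from 0 to 45 hours from parallel plates and hybridized to Illumina human Ref8v2 arrays, with 1 array for each of 16 time points. The 0 hour cells were untreated, and the cells of the other time points had received CP724,714, a small-molecule inhibitor of the HER2 kinase, at 1 µM. All plates were in medium with insulin (5 µg/mL) and epidermal growth factor (10 ng/mL), fresh medium was given together with the inhibitor, and no series without inhibitor was analysed here. Inhibitor, medium change and time in culture therefore cannot be told apart.

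Notch receptors are cell surface proteins that are switched on by ligands on a neighbouring cell. Binding leads to cleavage of the receptor, first by an ADAM protease and then by gamma-secretase, and the freed intracellular part enters the nucleus, joins the DNA-binding protein RBPJ and turns on target genes such as those of the HES and HEY families of repressors. In mammary epithelium the pathway is known for its part in the choice between the basal and luminal fates.

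HES1 is the textbook direct target of this pathway, and its promoter was set beside those of NOTCH1 and JAG1, the receptor and the ligand that were above background on every array. The sequences are from RefSeq (GRCh38.p14) and hold the 250 bases before the start of the gene, 5′ to 3′ on the strand of the gene. They lie at chr3:194135898-194136147 on the + strand for HES1, at chr9:136546049-136546298 on the - strand for NOTCH1 and at chr20:10674000-10674249 on the - strand for JAG1. Capitals mark TGGGAA, the core that RBPJ binds.
HES1: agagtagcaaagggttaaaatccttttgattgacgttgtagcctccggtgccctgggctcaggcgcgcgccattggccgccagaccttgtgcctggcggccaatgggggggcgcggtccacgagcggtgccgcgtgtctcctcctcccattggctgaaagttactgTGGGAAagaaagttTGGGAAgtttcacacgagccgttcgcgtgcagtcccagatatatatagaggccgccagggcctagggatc
NOTCH1: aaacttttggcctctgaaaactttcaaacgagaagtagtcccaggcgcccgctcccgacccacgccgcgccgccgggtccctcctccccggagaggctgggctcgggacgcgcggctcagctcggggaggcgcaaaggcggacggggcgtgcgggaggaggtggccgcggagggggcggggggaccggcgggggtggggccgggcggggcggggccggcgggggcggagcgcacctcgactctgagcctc
JAG1: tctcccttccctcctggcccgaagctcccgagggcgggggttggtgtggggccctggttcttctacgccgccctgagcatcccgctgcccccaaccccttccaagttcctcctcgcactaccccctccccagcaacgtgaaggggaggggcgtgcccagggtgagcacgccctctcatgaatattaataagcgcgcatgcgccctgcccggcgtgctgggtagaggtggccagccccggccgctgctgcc
In the HES1 promoter TGGGAA began 84 and 70 bases before the start, both on the strand of the gene, and the farther match was part of a GTGGGAA. Searched on both strands, TGGGAA was present in 21.1% of 27305 promoters of this length, 2 or more matches were present in 2.92%, and GTGGGAA was present in 5.46%. HES1 also held 3 matches to CACNAG, the N box that HES proteins bind, at 165, 132 and 58 bases before the start, a motif present in 32.0% of promoters. CACGTG, an E box found in 6.49% of promoters, was not in the HES1 window. The windows of NOTCH1, NOTCH2, JAG1 and JAG2 held none of these 4 motifs, and that of NOTCH3 held 1 CACNAG, 211 bases before the start. A match is only a run of letters and was not tested as a binding site. DLL1 and HEY1 had no entry in the promoter table.

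The arrays had median intensities of 210 to 254, and between 50.1% and 52.9% of the rows of an array were above background, meaning a detection p under 0.05 against that array's negative control beads. KRT5, a basal keratin, was bright on all 16 arrays (intensity 28830 to 43969), whereas KRT14 was above background on 1 array. Of the 8 basal markers, 5 were above background on all 16 arrays and 1, LAMB3 by its brightest row (a combined one), on none. Of the 6 luminal markers, KRT8 and KRT18 were bright, FOXA1 was above background on 16 arrays and GATA3 on 15, and ESR1 and PGR were not above background on any array. Among the markers of other cells, 5 of 6 fibroblast and 3 of 6 endothelial genes were not above background on any array, with summed intensities of 1006 to 1180 and 1130 to 1425. The endothelial genes CDH5, VWF and CLDN5 and the T cell gene CD3E were not above background on any array. The other endothelial genes, PECAM1, KDR and TEK, were above background on 15, 15 and 2 arrays. Changes of markers are given from 0 to 9 hours to 36 to 45 hours, by the brightest row of a gene. The basal markers ITGB4 and KRT17 rose by 1.24 and 0.69 (adjusted p = 1.5e-06 and 0.042, limma). TP63, another basal marker, rose by 1.73 (adjusted p = 6.7e-07, limma) from values at the background throughout 0 to 9 hours. The luminal marker GATA3 rose by 0.86 (adjusted p = 0.015, limma). For the luminal marker KRT18 the brightest row, a combined one, rose by 0.26 (adjusted p = 0.033, limma). Its single-probe row, detected on all 16 arrays, fell by 0.66 (adjusted p = 0.022, limma), so no direction is given for KRT18. The endothelial gene PECAM1 rose by 0.84 (adjusted p = 3e-04, limma). The leukocyte gene CD14 rose by 1.75 (adjusted p = 1.3e-07, limma), like TP63 from values at the background throughout 0 to 9 hours. Both TP63 and CD14 were tested because of later arrays alone, so the size and adjusted p of their rises are not firm. The leukocyte gene PTPRC, above background on 5 arrays, had a change of 0.04 (adjusted p = 0.86, limma), and LYZ was above background on 1 array. The part of these markers in the results was not tested. Expression is given as log2 intensity after background correction and quantile normalization. A probe was tested if it was above background on at least 3 arrays, which held for 11957 probes. NOTCH1, NOTCH2, JAG1 and HES1 passed this filter, and NOTCH3, JAG2, DLL1 and HEY1 did not. The levels of different probes are not compared, because brightness depends on the probe. Without replicate arrays, the error of each probe was estimated from its scatter around a smooth curve of time, or within windows of 4 consecutive time points (0 to 9, 12 to 21, 24 to 33 and 36 to 45 hours). These windows are not replicates of a condition.

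Of the 4 tested genes, JAG1, NOTCH2 and NOTCH1 had time-dependent expression and HES1 did not pass, at an adjusted p under 0.05 from limma's moderated F-test of a spline of time. Of all tested probes, 54.6% passed, so that 3 of 4 is no unusual share. From the first to the last window 1 of the 4 changed, JAG1, which fell, where 31.2% of all probes changed (16.2% rose and 15% fell). From 24 to 33 to 36 to 45 hours 1 of the 4 changed, NOTCH1, which rose, where 38% of all probes changed (19.3% rose and 18.7% fell). From the first to the second window none of the 4 passed with limma's adjusted p and 29.5% of all probes did (15.1% rose and 14.4% fell), and at an unadjusted p under 0.05 it was none of the 4 and 39.5% of all probes. From the second to the third window none of the 4 passed with limma's adjusted p and 0.0251% of all probes did, and at an unadjusted p under 0.05 it was JAG1 alone and 4.89% of all probes. Each of the 4 was at least 1.7-fold away from its 0 hour value on some later array, NOTCH1, JAG1 and HES1 below it and NOTCH2 above it, as were 43.8% of all probes (21.9% below and 23.8% above, some of them both). Without background correction this held for 3 of the 4, not for JAG1, and for 18.3% of all probes. An intensity reflects the RNA of the whole plate, so that fewer cells with the transcript and less of it per cell cannot be told apart.

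**Figure D1:**
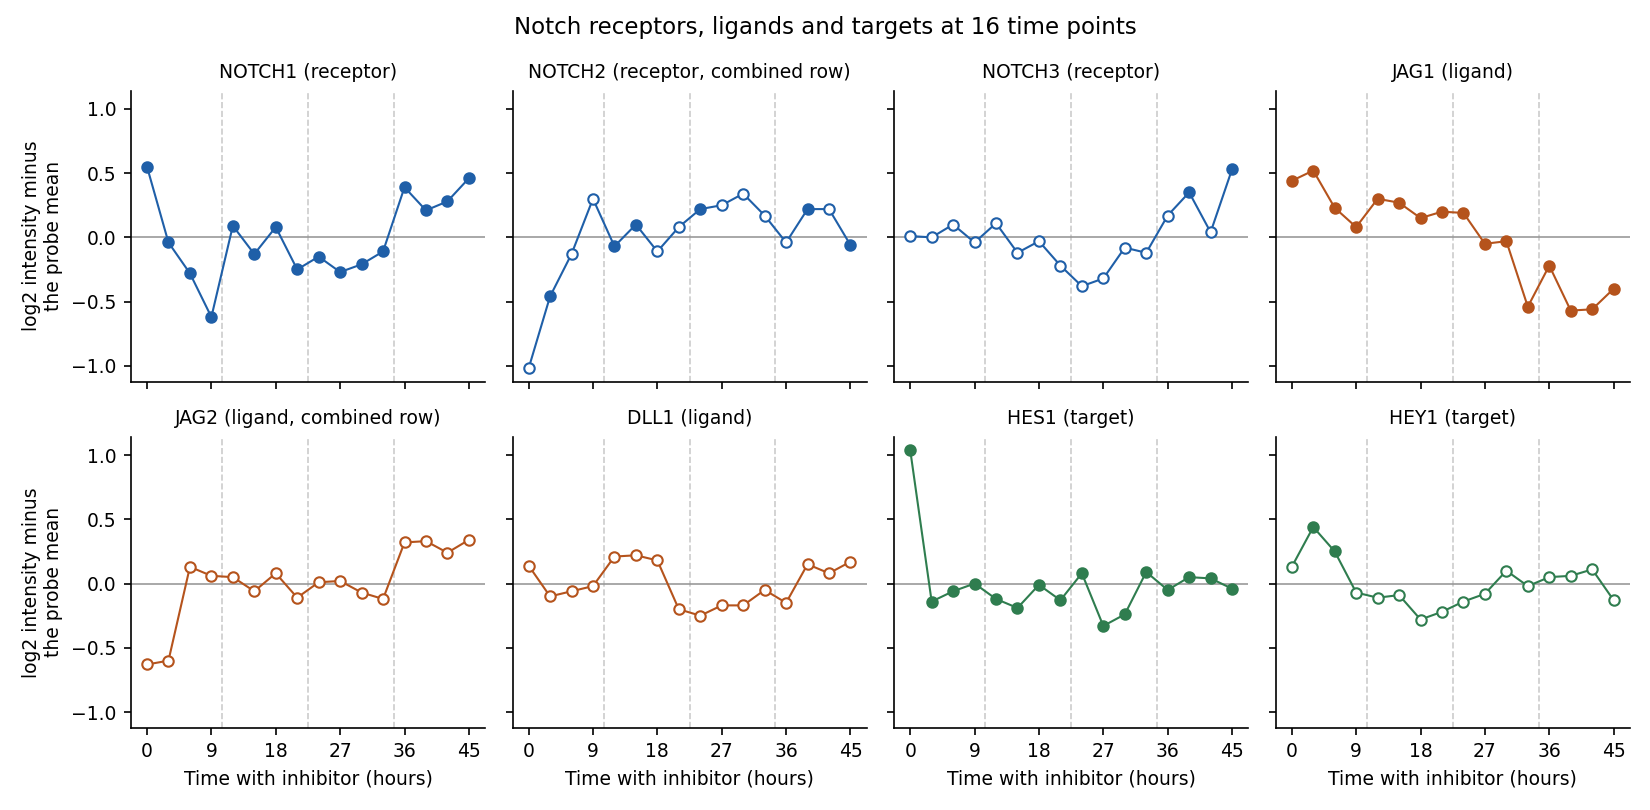
Log2 intensity minus the mean of the probe (vertical axis) against hours with inhibitor (horizontal axis) for the 8 genes, 1 array a point. Filled points are above background, open points are not, and dashed lines separate the windows of 4 arrays; HES1 stands highest at 0 hours, NOTCH2 lowest at 0 hours, and JAG1 is lower on each of the last 4 arrays than on each of the first 4.

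NOTCH1, a receptor that is bound by both Jagged and Delta ligands, fell until 9 hours, came back in part at 12 hours and was higher again at the end. Its deposited intensity ran from 483 at 9 hours over a median of 617 to 853 at 36 hours, above background on all 16 arrays. On the log2 scale it was highest in untreated cells at 9.45 and stood at 8.85, 8.62 and 8.28 at 3, 6 and 9 hours, each array below the one before. The 0 hour level was 2.25-fold that of 9 hours after background correction and 1.71-fold in the deposited intensities. NOTCH1 then stood at 8.99 at 12 hours, a step of 0.71 between 2 single arrays, and lay between 8.63 and 8.99 from 12 to 33 hours. From 9 to 12 hours 7.36% of tested probes moved at least 1.7-fold in either direction, against 0.853% from 12 to 15 hours. The last 4 arrays lay between 9.11 and 9.36, all above the 4 arrays of 24 to 33 hours, as held for 22.2% of probes, and all below the untreated array.

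The windows of NOTCH1 had means of 8.80 ± 0.49, 8.84 ± 0.17, 8.71 ± 0.07 and 9.23 ± 0.11 (SD over 4 time points). The step to the last window was an increase of 0.52 (SE 0.17, 1.44-fold, adjusted p = 0.024, limma), and from the first to the last window the difference was 0.43 (SE 0.17, adjusted p = 0.068, limma). The latter value depended on single arrays of the wide first window, and it was 0.65 (adjusted p = 0.00086) without the 0 hour array and 0.26 (adjusted p = 0.21, limma) without that of 9 hours. The time dependence was close to the threshold (adjusted p = 0.040, limma). This call was lost on leaving out any one of 9 of the 16 arrays (15, 21, 24, 27, 30, 36, 39, 42 or 45 hours), with a range of 0.017 to 0.12, and the call of the step to the last window was lost without the array of 27, 30, 36 or 45 hours, while its size stayed between 0.48 and 0.57 whichever array was left out.

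NOTCH2, the other receptor that could be tested, was at its lowest before treatment, as were 12.9% of tested probes. Its row is taken to be a combined one, with a value made from more than 1 probe, because its detection p does not step as those of single probes do. Its detection p lay between 0.00576 and 0.385 and passed on 6 arrays (3, 12, 15, 24, 39 and 45 hours). The detection p of such a row did not follow its brightness, since every single-probe row as bright as NOTCH2 on the same array had a detection p of 0.00847 or less. The intensity ran from 377 at 0 hours over a median of 618 to 732 at 30 hours. The log2 values were 7.68 at 0 hours, 8.24 at 3 hours, 8.57 at 6 hours and 9.00 at 9 hours, and those from 12 to 45 hours stayed between 8.60 and 9.05. Every array from 6 hours on was at least 1.7-fold above the untreated array after background correction, which held for 0.719% of tested probes. It did not hold in the deposited intensities, where NOTCH2 was 377 at 0 hours, 554 at 6 hours and 507 at 45 hours. The 9 hour level was 2.49-fold that of 0 hours after background correction and 1.82-fold without it.

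The spline test gave NOTCH2 an adjusted p of 0.0019 (limma), which rested on the untreated array, since it was 0.10 without it. Window means were 8.38 ± 0.56, 8.71 ± 0.10, 8.95 ± 0.07 and 8.79 ± 0.15 (SD over 4 time points). The difference of the last from the first window, 0.42 (SE 0.19), had an adjusted p of 0.11 (limma), and it was 0.62 (adjusted p = 0.0059) without the 9 hour array and 0.18 (adjusted p = 0.34, limma) without the untreated one. The difference of the second from the first window was 0.33 (SE 0.19, adjusted p = 0.21, limma), and it was 0.54 (adjusted p = 0.013) without the 9 hour array and 0.10 (adjusted p = 0.65, limma) without the untreated one. At 9 hours NOTCH1 thus stood below and NOTCH2 above its untreated level. Over all 16 arrays their Pearson r was -0.53, a description of 2 courses on the same arrays.

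NOTCH3, a receptor known from vascular smooth muscle as well as from the mammary gland, was near the background. Its intensity ran from 172 at 24 hours over a median of 219 to 234 at 6 hours, and it was above background on the arrays of 39 and 45 hours alone (with a detection p of 0.0297 and 0.024). In the other 3 windows no array was above background, so no change is given.

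JAG1, a Notch ligand of the Jagged type that is held on the cell surface, fell over the series. It was above background on all 16 arrays, with an intensity from 339 at 45 hours over a median of 478 to 544 at 3 hours. The log2 values of 0 to 9 hours were 8.56, 8.65, 8.36 and 8.20, and those of 36 to 45 hours were 7.91, 7.56, 7.56 and 7.72. The last 4 arrays lay below each of the first 4 arrays, which held for 12.3% of tested probes. In between, JAG1 lay between 8.27 and 8.42 from 12 to 21 hours and came down from 8.32 at 24 hours to 7.59 at 33 hours.

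The decrease of JAG1 between the first and the last window was 0.75 on the log2 scale (SE 0.15, 1.69-fold, adjusted p = 0.00079, limma), from 8.44 ± 0.20 to 7.69 ± 0.16 (SD over 4 time points). On leaving out each array in turn the change lay between -0.84 and -0.69, and it passed the test each time. The spline gave an adjusted p of 0.00016 (limma). The decrease was spread over the second part of the series, since the second window differed from the first by -0.09 (adjusted p = 0.70), the third from the second by -0.34 (adjusted p = 0.97) and the last from the third by -0.33 (adjusted p = 0.086, all limma with SE 0.15). Where the steps fell depended on single arrays, since without the 33 hour array the third window differed from the second by -0.19 and the last from the third by -0.47 (adjusted p = 0.010, limma), and without the 24 hour array the latter was -0.23 (adjusted p = 0.26, limma).

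JAG2, the second Jagged ligand, is also a combined row and was never above background by its detection p (0.126 to 0.464), so that it was not among the tested probes. Its intensity was 359 at its lowest, at 3 hours, 478 at the median and 575 at its highest, at 36 hours. All single-probe rows as bright as JAG2 on the same array had a detection p of 0.00989 or less. The log2 values were 7.57 and 7.60 at 0 and 3 hours, between 8.07 and 8.33 from 6 to 33 hours, and between 8.44 and 8.53 from 36 to 45 hours. These 3 levels were set apart after their values were seen, so that their separation is only a description. Between the same arrays many probes moved at least 1.7-fold in either direction, 7.49% of those tested from 3 to 6 hours and 6.39% from 33 to 36 hours. When combined rows were kept by their intensity, a choice made after seeing the data that gave 12012 probes, JAG2 rose by 0.57 from the first to the last window (SE 0.15, adjusted p = 0.0079, limma), where 16.4% of probes rose. Under that choice its time dependence had an adjusted p of 0.0039 (limma), and 55.1% of probes passed. The 2 Jagged genes thus changed in opposite directions, JAG1 down and JAG2 up, the latter only with its row kept by intensity or without any filter. No test of this difference was made.

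DLL1, a ligand of the Delta type, was not above background on any array. Its intensity ran from 141 at 24 hours over a median of 175 to 205 at 15 hours with a detection p of 0.26 to 0.953, and no fold or test of a change is given. It was thus not detectable with this probe.

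**Figure D2:**
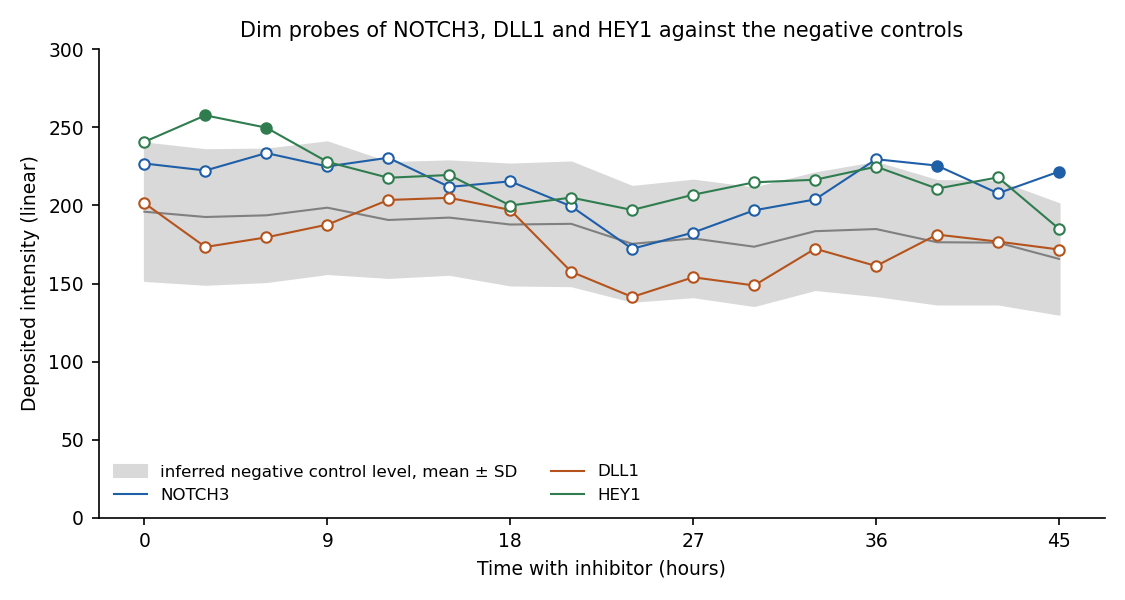
Deposited intensity on a linear scale (vertical axis) against hours with inhibitor (horizontal axis) for NOTCH3, DLL1 and HEY1, with the level of the negative controls inferred from the detection p (grey line, mean; band, ± SD). Filled points are above background, namely 39 and 45 hours for NOTCH3 and 3 and 6 hours for HEY1, and DLL1 has none.

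HES1, a repressor that switches on rapidly after Notch cleavage and whose promoter holds the pair of TGGGAA matches shown above, was highest in untreated cells, as were 12.5% of tested probes. Its intensity was 847 at 0 hours, 507 at the median and 453 at 45 hours, the lowest. The log2 value was 9.49 at 0 hours and 8.32 at 3 hours, a difference of -1.18, and the 15 treated arrays stayed between 8.13 and 8.55. The untreated array was thus at least 1.7-fold above every other array after background correction, which held for 0.401% of tested probes. It did not hold in the deposited intensities, where HES1 was 847 at 0 hours and 559 at 33 hours, the highest later value. At 3 hours alone, 2.49% of tested probes were at least 1.7-fold below the untreated array. The ratio of 0 to 3 hours was 2.26 after background correction, between 2.14 and 2.25 with another offset, median scaling or cyclic loess, and 1.82 without background correction. It rests on 1 array at each time and has no replicate check.

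HES1 did not pass the test of the time course, but lay close to its threshold. The spline gave an adjusted p of 0.057 (limma), which was 0.82 without the untreated array and passed without the array of 3, 6, 18 or 24 hours, the lowest being 0.0073. Window means were 8.67 ± 0.55, 8.35 ± 0.08, 8.36 ± 0.21 and 8.46 ± 0.05 (SD over 4 time points). The last window differed from the first by -0.21 (SE 0.19, adjusted p = 0.44, limma) and by 0.06 without the untreated array. The adjusted p was 0.024 for a spline with 5 degrees of freedom, 0.041 without background correction and 0.047 with a detection p under 0.01 as the filter (limma). HES1 did not pass with median scaling (adjusted p = 0.32), cyclic loess (0.079) or an offset of 50 (0.055, limma). Nor did it pass with a straight line (adjusted p = 0.45), without the filter on detection (0.076) or without the intensity trend in the prior variance (0.057, limma).

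HEY1, a repressor related to HES1, was above background at 3 and 6 hours (with a detection p of 0.0297 and 0.0381) and on no other array. Its intensity ran from 185 at 45 hours over a median of 217 to 258 at 3 hours. Both of these arrays lie in the first window, and no change against the later windows, which held no array above background, is given.

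**Figure D3:**
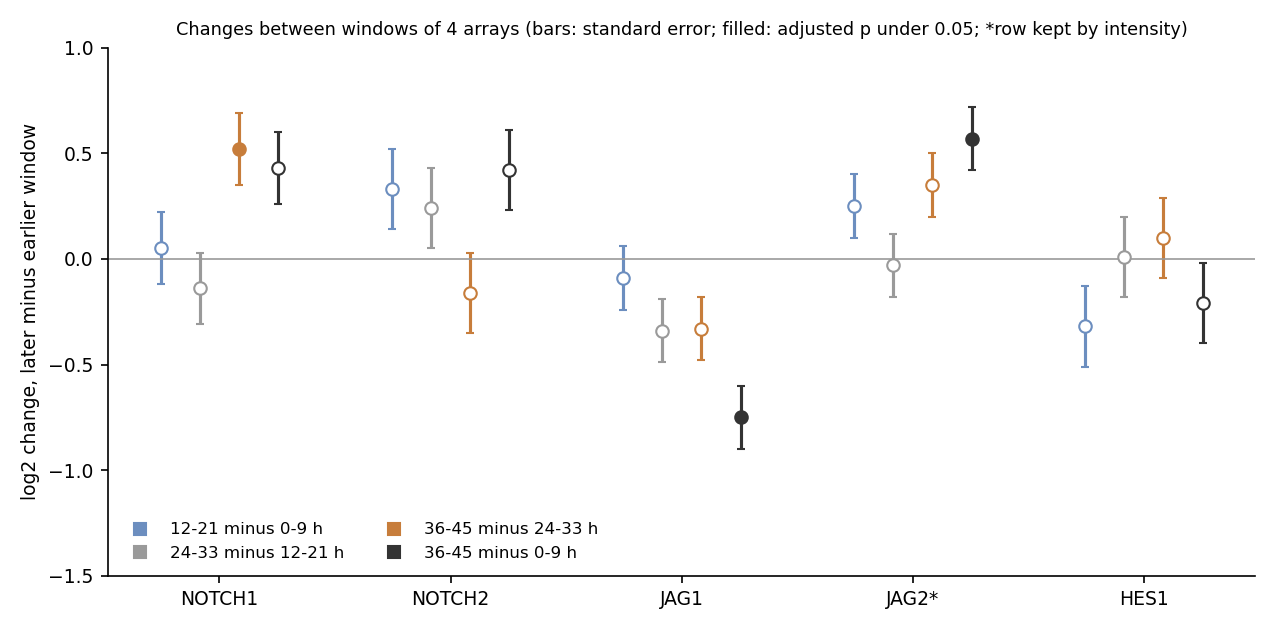
Log2 change between windows of 4 arrays (vertical axis, later minus earlier, bars ± SE) for the 4 tested genes and for JAG2, whose values come from the fit in which combined rows were kept by intensity. Filled points have an adjusted p under 0.05, namely the last step of NOTCH1 (0.52), the overall change of JAG1 (-0.75) and that of JAG2 (0.57).

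The patterns most like those of the tested genes were looked up among all tested probes by Pearson r of log2 intensity over the 16 arrays. For NOTCH1 they were those of CXXC5 (0.934), RALA (0.926) and NTF3 (0.91), which stayed between 0.884 and 0.94 without the untreated array. For JAG1 they were those of UPP1 (0.901), PRKCDBP (0.898) and STC1 (0.895), between 0.885 and 0.89 without it. For NOTCH2 they were those of LYPLAL1 (0.935), WDR71 (0.922) and SYPL1 (0.915), which had r between 0.806 and 0.88 without it. HES1 was most like BMP2 (0.921), ADM (0.904) and ZFP36L1 (0.903), but here r was between 0.301 and 0.484 without the untreated array. BMP2, a secreted growth factor, had a log2 value of 9.68 at 0 hours and 7.03 to 7.88 afterwards, and ADM, the gene of the vasodilator peptide adrenomedullin, had 12.97 and then 10.12 to 10.97. These correlations are the highest of 11956 on shared arrays and are given as descriptions.

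The other genes of the pathway were taken from 5 lists with 64 genes, of which 62 were on the array and 52 had a tested probe. Of the 52, 30 had time-dependent expression, 9 rose and 3 fell from the first to the last window (limma, adjusted p under 0.05), with a median change of 0.11. Of all tested probes 54.6% were time-dependent, 16.2% rose and 15% fell, with a median of -0.02. Where several probes carried a gene, the brightest was used. DTX4 and NRARP were not on the array.

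Among the 14 tested genes of receptor glycosylation, ligand handling and endocytosis, 5 rose and none fell, where 16.2% of all tested probes rose and 15% fell. The median change of the 14 was 0.21. LFNG, the Fringe glycosyltransferase that alters which ligands a Notch receptor answers to, was 11.56 ± 0.65 in the first window and 12.30 ± 0.06 in the last, and between them 11.61 ± 0.14 and 11.60 ± 0.10 (SD over 4 time points). Its change of 0.74 (SE 0.20, adjusted p = 0.0098, limma) was 1.00 without the 0 hour array, where LFNG stood at 12.35, and 0.48 without the 9 hour array. DTX1, a Deltex ubiquitin ligase that binds the receptor, rose by 0.74 (SE 0.15, adjusted p = 0.0013, limma) and was above background on 1 of the first 4 and all of the last 4 arrays. The other 3 that rose, named after their values were seen, were the Fringe gene RFNG (0.53), POGLUT1 (0.61) and POFUT1 (0.42). The enzymes of POGLUT1 and POFUT1 add the first sugars to the receptor. The row of RFNG is a combined one, above background on 6 arrays. A dimmer, combined row of POFUT1, above background on 12 arrays, went the other way without passing (-0.26, adjusted p = 0.071, limma). The call of POFUT1 was lost on leaving out any one of 14 of the 16 arrays, and that of POGLUT1 without the array of 3, 39 or 45 hours.

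Among the 9 tested genes of receptor cleavage, 1 rose and 1 fell, where 16.2% of all tested probes rose and 15% fell. Both code for subunits of gamma-secretase. NCSTN (nicastrin) lay between 11.25 and 11.43 on the 12 arrays up to 33 hours and between 11.77 and 12.04 from 36 hours on, an increase of 0.51 over the first window (SE 0.07, adjusted p = 5e-05, limma). PSENEN lay between 10.27 and 10.58 in the first window and between 9.90 and 10.03 in the last, a decrease of 0.48 (SE 0.09, adjusted p = 7e-04, limma). APH1A, APH1B and PSEN2, further genes of the complex, had changes of 0.03, 0.23 and 0.29 that did not pass. The sheddase genes ADAM10 and ADAM17 had changes of 0.45 (adjusted p = 0.08) and -0.15 (adjusted p = 0.37, limma).

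Among the 19 tested genes of the nuclear complex and its regulators, 3 rose and none fell, where 16.2% of all tested probes rose and 15% fell. The median change of the 19 was 0.03. KAT2B, an acetyltransferase listed in the file as PCAF, rose by 0.68 (SE 0.15, adjusted p = 0.0026, limma), from 8.39 ± 0.26 to 9.07 ± 0.18 (SD over 4 time points). CIR1, a corepressor that binds RBPJ and is listed as CIR, rose by 0.60 (SE 0.12, adjusted p = 0.00095, limma), from 8.79 ± 0.16 to 9.39 ± 0.16. The third was RBPJ itself, named after its value was seen, with a change of 0.19 (adjusted p = 0.036, limma) whose call was lost on leaving out any one of 6 arrays, while the change stayed between 0.14 and 0.24. In LFNG, DTX1, NCSTN, KAT2B and CIR1, as in NOTCH1, every array of the last window was above every array of the third. This held for 22.2% of tested probes. The pathway genes were named because they changed up to the last window, so that share is no fair comparison for them.

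Of the 6 tested genes among other HES and HEY family members and targets, 2 fell and none rose, where 15% of all tested probes fell and 16.2% rose. HES6, which is known to counteract HES1, fell by 0.76 (SE 0.22, adjusted p = 0.013, limma), from 10.29 ± 0.68 to 9.54 ± 0.15 (SD over 4 time points). Like HES1 it was highest in untreated cells, at 10.87, and its change was -0.57 (adjusted p = 0.035, limma) without that array and -1.03 without that of 9 hours. HES5, named after its value was seen, fell by 0.51 (adjusted p = 0.02, limma) and was above background on all of the first 4 arrays and on 1 of the last 4, a call lost without the array of 3 or 42 hours. HEY2 and HEYL were not above background on any array. None of the 4 tested ligands and receptors outside the 8 genes, NOTCH4, DLL3, DLK2 and DNER, changed from the first to the last window, with values between -0.25 and 0.46. Time-dependent expression was called for 3 of them and for 54.6% of all tested probes.

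**Figure D4:**
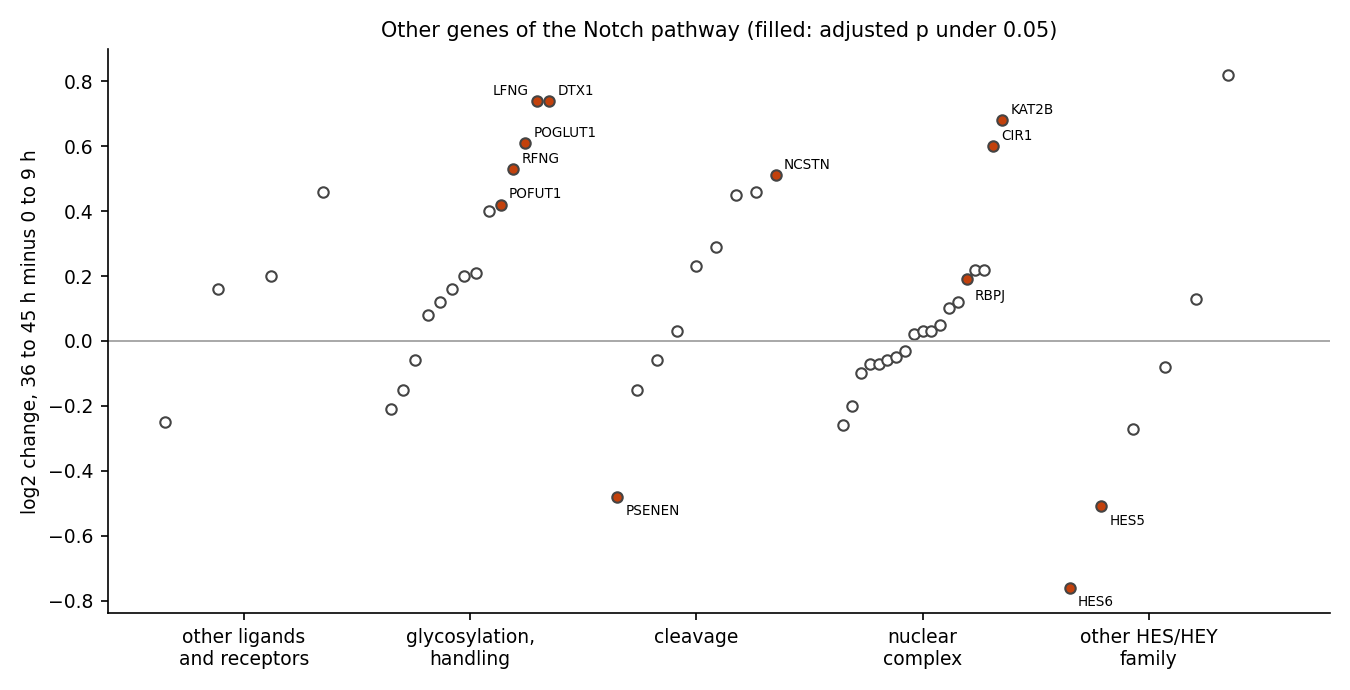
Log2 change from 0 to 9 hours to 36 to 45 hours (vertical axis) of the 52 tested genes in the 5 pathway lists (horizontal axis, sorted by change within a list), 1 point a gene. Filled and named points have an adjusted p under 0.05, 9 of them above 0 and 3 below.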

How the data were processed

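RNA of MCF-10A cells was measured on 16 Illumina arrays, 1 for each time point. The table that the authors deposited gives an intensity for every row on a linear scale, not normalized between arrays, and a detection p-value against the negative control beads. The summary software is not given in the sources used here, and the study's methods name quantile normalization. Rows whose detection p-values stepped by 1 in 708 on all arrays (tolerance 0.001) were taken as single probes (19092), and the other 1497 as combined rows. How the combined rows were made is not given.

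Intensities were corrected with normexp, with the negative control level inferred from the single-probe rows (166 to 199, SD 35.4 to 44.0), an offset of 16 was added, and quantile normalization and the log2 transform followed (limma 3.58.1 in R 4.3.3). The offset understates the change of dim probes. Probes above background on at least 3 arrays were fitted with a natural cubic spline of time (3 degrees of freedom) and with 4 windows of 4 time points, each with the prior variance following the intensity and 12 residual degrees of freedom. Adjusted p-values are from limma with Benjamini-Hochberg adjustment over the 11957 probes, and calls were made under 0.05. They measure the spread around a course, which may be technical, and the number of arrays limits the precision. In a simulation with independent noise around flat courses, 200 of the 11957 probes moved by 1 log2 unit. The spline recovered 79% with 9 false calls and the last against first window 81.5% with 11, both for a straight line over 45 hours. For a step at 36 hours, the 36 to 45 against 24 to 33 hour window recovered 94.5% with 17. The real arrays had jumps shared by many probes, with 6.39% of tested probes moving at least 1.7-fold from 33 to 36 hours. From 3 to 6 and from 9 to 12 hours 7.49% and 7.36% did. The simulation held no such jumps, so its false calls do not carry over to these data. Figures were drawn with matplotlib 3.10.9.

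The genes and lists were chosen with earlier results of these data known. Of each pathway list, the 2 genes with the largest change among those past both the spline test and the last against first window are named, and for each tested gene the 3 symbols with the highest r. Symbols are those of the file, with the current name where it differs. Promoters came from RefSeq tables. Alternatives were other background corrections, scalings, filters, curves, contrasts, thresholds and reference arrays, and leaving out each array. The leukocyte marker list as a whole is not reported here.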

Additional observations from a re-analysis of the deposited data

Results flagged for a closer look

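Within windows of 4 time points, 2 of the 32 windows of the 8 genes held an array far from the other 3, and chance flags about 1 in 20. HES1 stood at 9.49 at 0 hours, against 8.32 to 8.46 at 3 to 9 hours (gap over range 0.882), and this array is the untreated one. DLL1 stood at 5.26 at 21 hours, against 5.65 to 5.69 at 12 to 18 hours (gap over range 0.909), values at the background, since no array of the window was above it.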

How the results depend on the processing

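Of 171 values of single genes under the alternatives other than leaving out arrays, 161 kept their direction and their side of the threshold, 2 no longer passed, 7 newly passed and 1 reversed, the change of JAG1 from the first to the second window (-0.09, and 0.08 with median scaling, neither past the threshold). On leaving out each array, 6 such small values changed sign, none of them past the threshold, within ranges of -0.33 to 0.06 for the last against the first window of HES1, -0.13 to 0.26 for the second against the first of NOTCH1 and -0.05 to 0.09 for the third against the second of HES1. Time-dependent expression was called for 3 of 4 tested genes, for 5 without the filter on detection (8 tested), for 1 with a straight line, for 4 without background correction or with 5 degrees of freedom and for all 3 tested at a detection p under 0.01 (HES1 among them each time), for 4 with combined rows kept by intensity, and for 2 to 4 on leaving out each array. The last against the first window gave 1 call, 3 with median scaling (NOTCH1 at 0.63, adjusted p = 0.006, and NOTCH2 at 0.61, adjusted p = 0.019, limma), 2 without the filter, 2 with combined rows kept by intensity, 2 for 0 and 3 against 42 and 45 hours, and 1 to 2 on leaving out each array. The last against the third window gave 1 call, 2 with median scaling (JAG1 at -0.39, adjusted p = 0.047, limma), 2 without the filter, and 0 to 2 on leaving out each array. The second against the first window gave 0 calls, 1 without the filter, and 0 to 1 on leaving out each array, and the third against the second gave 0 each time. The cause of these differences was not tested, beyond the larger number of genes tested without the filter, which added JAG2 and, at the background, NOTCH3 and HEY1. Median scaling moved the median change of all probes from -0.02 to 0.11 between the first and last windows. Over all probes, a straight line called 1953 in place of 6533, and 0 and 3 against 42 and 45 hours called 1388 in place of 3730. The fit with the chip as a block, listed among the alternatives, was not run because no chip is named in the labels or the table. No paired analysis was possible because each time point has 1 array. For NOTCH3, DLL1 and HEY1, signal at the background is the limit.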
